A study of Rattus norvegicus with 9 samples.

Results

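Small leucine-rich proteoglycans (SLRPs) are short secreted matrix proteins built of leucine-rich repeats. The 9 genes described here were chosen by name: Dcn (decorin), Bgn (biglycan), Aspn (asporin), Fmod (fibromodulin), Lum (lumican), Prelp (proline and arginine rich end leucine rich repeat protein), Omd (osteomodulin), Ogn (osteoglycin) and Epyc (epiphycan). All 9 were found among the 32043 genes of the deposited table, and all 9 were among the 13898 genes tested. The RNA came from knee cartilage of male Sprague–Dawley rats, which were 8 weeks old when bought, and was sequenced as 9 libraries in 3 groups of 3. In the control group the joint capsule of the left knee was opened and sutured. In the model group the medial collateral and anterior cruciate ligaments were cut out and the medial meniscus removed (a modified Hulth operation that produces knee osteoarthritis), and the animals were made to move daily for 4 weeks. The SYD group had the same operation and then 4 weeks of Shengyu decoction (SYD, an extract of several medicinal plants) by gavage. The study's methods describe the forced movement as part of making the model and do not list it group by group. The labels give no dose, and the results text of the study names its high-dose group as sequenced, while its methods mention no treated group among those sequenced. The titles and descriptions mark these libraries as SYD, but their library names begin with CXTB, which the labels do not explain, and the study also had a celecoxib group, so the identity of this group rests on the titles and descriptions. Cartilage was collected 8 weeks after surgery. Nothing in the sources used here says that the libraries of a group came from separate rats, so p-values measure only the spread between these libraries.

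SLRPs bind the surface of collagen fibrils and regulate how fibrils grow and pack, and several of them also bind growth factors such as those of the TGF-β family. Decorin and biglycan carry chondroitin or dermatan sulfate chains, while fibromodulin, lumican and osteomodulin can carry keratan sulfate. In articular cartilage they are the small proteoglycans beside aggrecan, and proteases that attack the matrix also cut them.

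The libraries held 14914121 to 19510537 reads, recovered from the deposited FPKM values (fragments per kilobase of gene and per unit of an effective library size). That size was not the read total: it was 2.01 to 2.18 times the reads in control libraries, 0.193 to 1.44 times in model and 0.609 to 1.65 times in SYD libraries. Mitochondrial genes took 4.05 to 4.86% of the reads of control libraries, 39.5 to 90.7% of model libraries and 23.7 to 72.7% of SYD libraries, so that between 1744769 (model 1) and 17373645 (control 3) reads fell on other genes. The effective size put the 9 libraries in the same order as these other reads, from 3.64e+06 in model 1 to 3.94e+07 in control 3. The deposited scale thus ran with the reads outside mitochondrial genes. The labelled tissue was checked against 14 chondrocyte markers, all of them found. Their summed FPKM was 10782, 451 and 5668 in control libraries 1, 2 and 3, between 147 and 804 in the model group and between 121 and 1253 in the SYD group, and the cartilage matrix gene Matn1 was listed at 0 in all 6 libraries of the operated groups. Control 2 thus stood apart from control 1 and 3 and lay within the range of the operated knees. The summed FPKM of 12 synovial and fibrous tissue markers was 41.9 to 101 in control, 84.8 to 257 in model and 116 to 259 in SYD libraries. Marrow and blood markers summed to 3905 to 7911, 115 to 13267 and 723 to 5231, osteoblast markers to 1295 to 2067, 977 to 4962 and 4380 to 6735, and endothelial markers to 29.4 to 39.0, 19.8 to 200 and 79.8 to 111 in control, model and SYD libraries. In the same order, skeletal muscle markers summed to 18.7 to 281, 17.2 to 511 and 23.0 to 807, and adipocyte markers to 69.1 to 100.3, 41.2 to 156 and 68.5 to 419. The part of these markers in the results below was not tested. In whole tissue, fewer cells of a type and less RNA per cell cannot be told apart.

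Among the SLRPs, the pattern across groups differed from gene to gene. Dcn, Lum and Ogn were higher in every SYD library than in every control library, as were 20.3% of all tested genes. Aspn passed the call criteria in both operated groups against control, with overlapping libraries. Fmod and Prelp were both highest in control 1. Control 2 was their lowest library, as it was for Dcn, Bgn, Lum, Ogn and Aspn. Bgn was the most abundant member in every library, and Epyc was close to undetected.

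**Figure D1:**
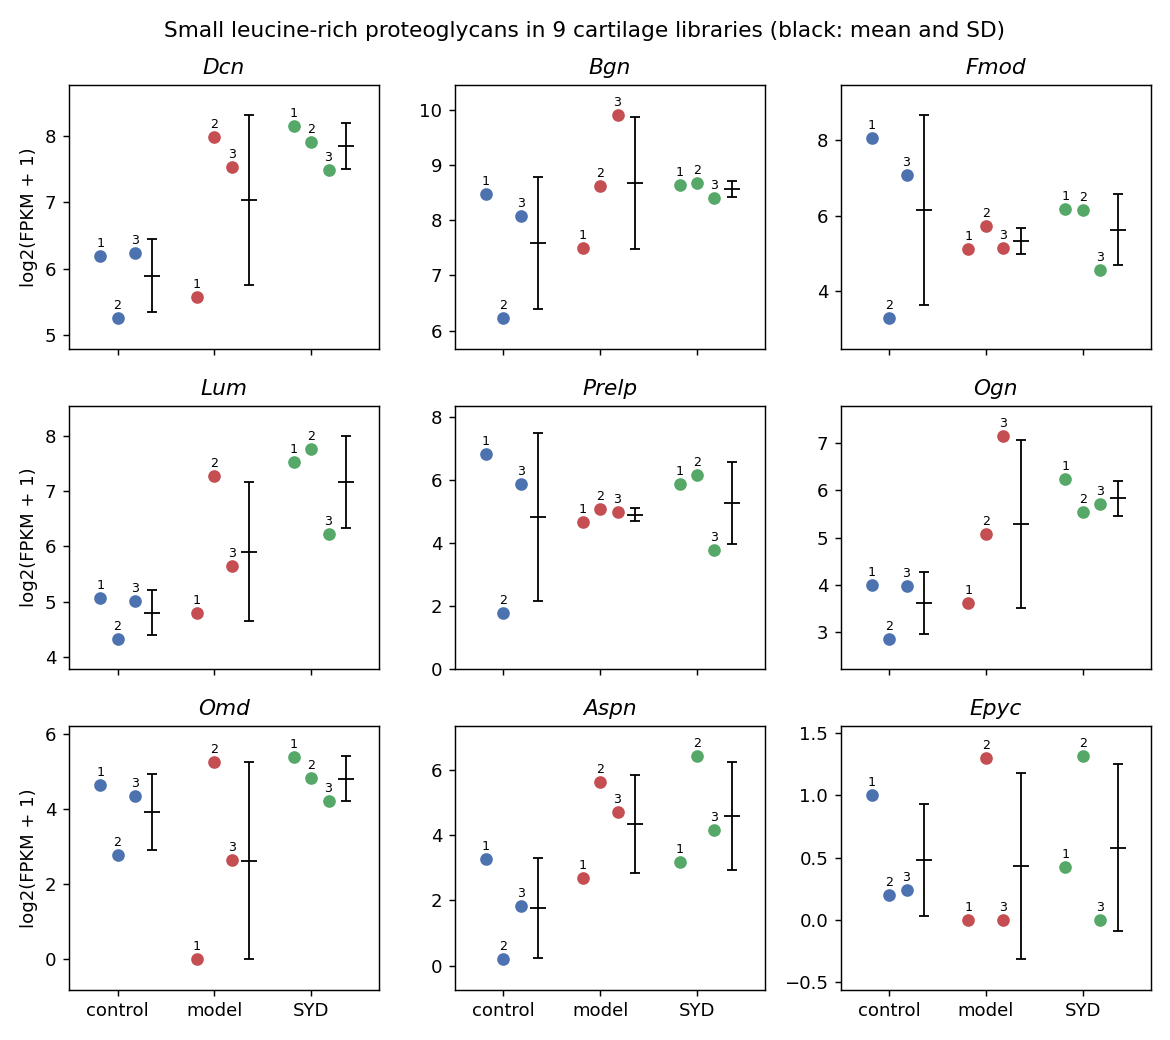
Level of each of the 9 SLRP genes in the 9 libraries, as log2(FPKM + 1) on a separate vertical scale per gene. Numbered points are libraries 1 to 3 of the control, model and SYD groups, and black marks are the group mean with its SD (n = 3). Dcn, Lum and Ogn are higher in all SYD than in all control libraries, as were 20.3% of all tested genes. Control 2 is the lowest library for Fmod and Prelp, and also for Dcn, Bgn, Lum, Ogn and Aspn.

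Decorin (Dcn, ENSRNOG00000004554) ties fibrils together and binds TGF-β. It lies at 32281252-32321270 on the plus strand of chromosome 7, in the positions of the deposited table, for which no rat genome build is named. Its FPKM was 71.9, 37.1 and 74.5 in control 1 to 3, 46.7, 252 and 184 in model 1 to 3, and 284, 240 and 178 in SYD 1 to 3. The lowest SYD library was well above the highest control library, whereas model 1 lay among the controls and the other two model libraries among the SYD group. The group means were 61.2 ± 20.9 in control, 161 ± 105 in model and 234 ± 53.2 in SYD (SD, n = 3).

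Biglycan (Bgn, ENSRNOG00000055962), the closest relative of decorin, is abundant in cartilage and bone. It lies alone on chromosome X at 151197273-151209461, plus strand. Its FPKM was 355, 73.9 and 268 in control, 180, 391 and 953 in model, and 395, 409 and 338 in SYD libraries 1 to 3. Control 2 was the lowest and model 3 the highest library, and the SYD libraries lay close together at 381 ± 37.5 against 232 ± 144 in control and 508 ± 400 in model (SD, n = 3). The control and SYD groups overlapped, since control 1 was above SYD 3.

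Asporin (Aspn, ENSRNOG00000015410) belongs to the same class as decorin and biglycan, carries a run of aspartate residues in place of the usual chain, and binds TGF-β1. It lies on chromosome 17 at 15080639-15104041, minus strand. Its FPKM was 8.67, 0.143 and 2.52 in control, 5.49, 48.8 and 25.3 in model, and 8.13, 84.8 and 16.7 in SYD libraries 1 to 3. The value of control 2 rested on 10 reads and that of model 1 on 38. Model 1 and SYD 1 lay below control 1, and all other libraries of the operated groups lay above it.

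Fibromodulin (Fmod, ENSRNOG00000003183) binds collagen and takes part in fibril assembly. It lies on chromosome 13 at 45493517-45504133, plus strand. Its FPKM was 264, 8.69 and 136 in control, 33.5, 51.9 and 34.3 in model, and 71.5, 70.3 and 22.3 in SYD libraries 1 to 3. Control 1 and 3 exceeded every library of the operated groups and control 2 was below all of them, being 30.4-fold lower than control 1. The model libraries lay close together at 39.9 ± 10.4 (SD, n = 3).

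Prelp (ENSRNOG00000003120), which binds collagen and heparan sulfate, lies near Fmod on chromosome 13 at 45370533-45380270, minus strand. Its FPKM was 112, 2.44 and 57.2 in control, 24.3, 32.8 and 30.3 in model, and 57.7, 70.8 and 12.6 in SYD libraries 1 to 3. As for Fmod, control 1 was the highest and control 2 the lowest library, here 46.1-fold apart. The other two groups lay between these extremes.

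Lumican (Lum, ENSRNOG00000004610), a keratan sulfate proteoglycan related to fibromodulin that binds the same part of type I collagen, lies beside Dcn on chromosome 7 at 32358614-32365793, plus strand. Its FPKM was 32.5, 19.1 and 31.1 in control, 26.8, 154 and 49.1 in model, and 182, 217 and 73.6 in SYD libraries 1 to 3. The SYD libraries were all above the control libraries, with means of 157 ± 74.6 and 27.6 ± 7.37 (SD, n = 3). Model 1 lay within the control range and model 2 within the SYD range.

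Stretches before the start sites that the RefSeq promoter table uses for Fmod and Lum are shown because the mean of Fmod was higher in control than in SYD libraries and that of Lum higher in SYD. They are RefSeq sequences on the plus strand of build GRCr8, written 5′ to 3′, and capitals mark motif matches. The Fmod stretch, chr13:48045467-48045566, ends at the last base before the start and holds a GC box (GGGCGG) that begins 85 bases and a Smad element (CAGAC) that begins 65 bases before the start. The Lum stretch, chr7:34245676-34245705, holds a Smad element on the other strand that begins 18 bases before the start used there. That start lies inside the annotated Lum gene, downstream of its first base, so the Lum stretch is not sequence in front of the gene, whereas the Fmod stretch ends where the annotated gene begins.
Fmod: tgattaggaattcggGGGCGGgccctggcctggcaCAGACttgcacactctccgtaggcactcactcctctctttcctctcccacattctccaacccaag
Lum: tgttcacagtgcGTCTGtttaaggaattaa
Of the 9 genes, 6 had a window of 250 bases before the start (Fmod, Lum, Epyc, Ogn, Omd and Aspn), of which those of Lum, Ogn and Aspn lie wholly or partly inside the annotated gene, and Dcn, Bgn and Prelp had no entry. On either strand, a GC box was found in 1 of these 6 windows (Fmod) and in 30.47% of all 33469 windows of this length, and CAGAC in 3 (Fmod, Lum and Ogn) and in 42.93%. The E-box (CANNTG) was found in 4 windows (Lum, Epyc, Ogn and Aspn) and in 65.54% of all, and the TATA box (TATAAA) in 1 (Ogn) and in 12.93%. The letters of AP-1 (TGANTCA, 6.34% of all windows) and of a SOX site (AACAAT, 10.33%) were in none of the 6. The matches printed above did not overlap each other, and none of them is a measured binding site.

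Osteomodulin (Omd, ENSRNOG00000039560), a keratan sulfate proteoglycan of mineralised tissue, lies on chromosome 17 at 15060217-15068441, minus strand. Its FPKM was 24.0, 5.85 and 19.3 in control, 0, 36.8 and 5.17 in model, and 40.6, 27.3 and 17.3 in SYD libraries 1 to 3. No read was counted in model 1, which at 3 reads allows a level of up to 0.458 FPKM by counting error alone, and 62 reads in model 3. The model group held both the lowest library and one near the top.

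Osteoglycin (Ogn, ENSRNOG00000029792), also called mimecan, binds collagen and is found in bone and connective tissue. It lies beside Omd on chromosome 17 at 15032069-15052739, minus strand. Its FPKM was 14.99, 6.25 and 14.7 in control, 11.2, 32.8 and 141 in model, and 74.9, 45.6 and 51.3 in SYD libraries 1 to 3. All SYD libraries were above all control libraries, at 57.3 ± 15.5 against 11.98 ± 4.96 (SD, n = 3). Model 1 lay among the controls and model 3 was the highest of all libraries.

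Epiphycan (Epyc, ENSRNOG00000004717), a relative of osteoglycin known from growth plate cartilage, lies on chromosome 7 at 32436620-32474135, plus strand. Its FPKM was 1.00, 0.147 and 0.183 in control, 0, 1.46 and 0 in model, and 0.340, 1.48 and 0 in SYD libraries 1 to 3. Between 0 and 70 reads were counted in a library, and its mean of 0.513 FPKM over the 9 libraries was just above the 0.5 needed for testing. The 3 libraries without a read allow up to 0.496 (model 1), 0.271 (model 3) and 0.157 FPKM (SYD 3) at 3 reads. Its differences between groups were not detectable at this depth.

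The comparison of model with control libraries asks what the operation and the daily forced movement changed together. A gene was called when limma gave an unadjusted p under 0.05 with a change of more than 1 on the log2(FPKM + 1) scale, the criteria of the study's methods, and Benjamini-Hochberg adjusted p-values over all 13898 genes stand beside the calls. Of the 9 SLRPs, 1 was called raised (Aspn) and none lowered, against 3.55% of all tested genes raised and 11.2% lowered. Aspn was higher in the model group by 2.59 ± 1.02 (log2, SE, limma, adjusted p = 0.244), or by 4.68 in voom on the recovered reads (adjusted p = 0.103). Of the 9 genes, 0 passed an adjusted p under 0.05 in limma or in voom, against 2.59 and 3.32% of all genes. With TPM values, where 69.6% of all genes did, 1 of the 9 did, Fmod (limma adjusted p = 0.0436). None of the 9 had model libraries that were all above or all below the control libraries, against 8.65% of genes higher and 20.0% lower without overlap. The median log2 fold change was 1.08 over the 9 genes, with 6 above 0, and -0.23 over all tested genes. In the same comparison 3 of 12 fibrous and 1 of 6 endothelial markers were called raised (medians 1.16 and 0.14). Called lowered were 6 of 11 marrow and blood, 8 of 14 chondrocyte and 1 of 10 osteoblast markers (medians -3.79, -3.26 and -0.30), and 0 muscle or adipocyte markers were called. The part of these tissues in the result was not tested.

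The members that were not called in the model group had wide intervals. The log2 fold changes were 1.67 for Ogn (95% confidence interval -0.50 to 3.85), 1.14 for Dcn (-0.50 to 2.77), 1.11 for Lum (-0.44 to 2.66) and 1.08 for Bgn (-0.92 to 3.08). On the other side, Omd was at -1.30 (-4.49 to 1.90) and Fmod at -0.81 (-3.71 to 2.08), while Prelp was at 0.08 and Epyc at -0.05. Single libraries decided these calls. Without control 2, Fmod (-2.25) and Prelp (-1.44) were called lowered, as were 7.50% of all genes in that fit, and Aspn was not called. Without model 1, the library with the fewest reads outside mitochondrial genes, Dcn (1.87), Lum (1.66), Ogn (2.51) and Aspn (3.42) were called raised, as were 7.14% of all genes in that fit. Without control 3, model 2 or model 3, none of the 9 was called.

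The scale of the libraries mattered as well. With TPM, which gives each transcript as a share of the whole library, mitochondrial reads included, the median of all genes moved to -2.60 and the calls over all genes went from 493 raised and 1553 lowered to 38 and 10407. Fmod (-3.91) and Omd (-3.54) were then called lowered, 2 of 9 against 74.9% of all genes, and Aspn was not called. Relative to that median, the log2 fold change was 2.97 for Aspn, 1.83 for the barely detected Epyc, 1.30 for Ogn, 0.61 for Lum, 0.59 for Dcn and 0.48 for Bgn, and it was -1.31 for Fmod, -0.94 for Omd and -0.31 for Prelp.

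**Figure D2:**
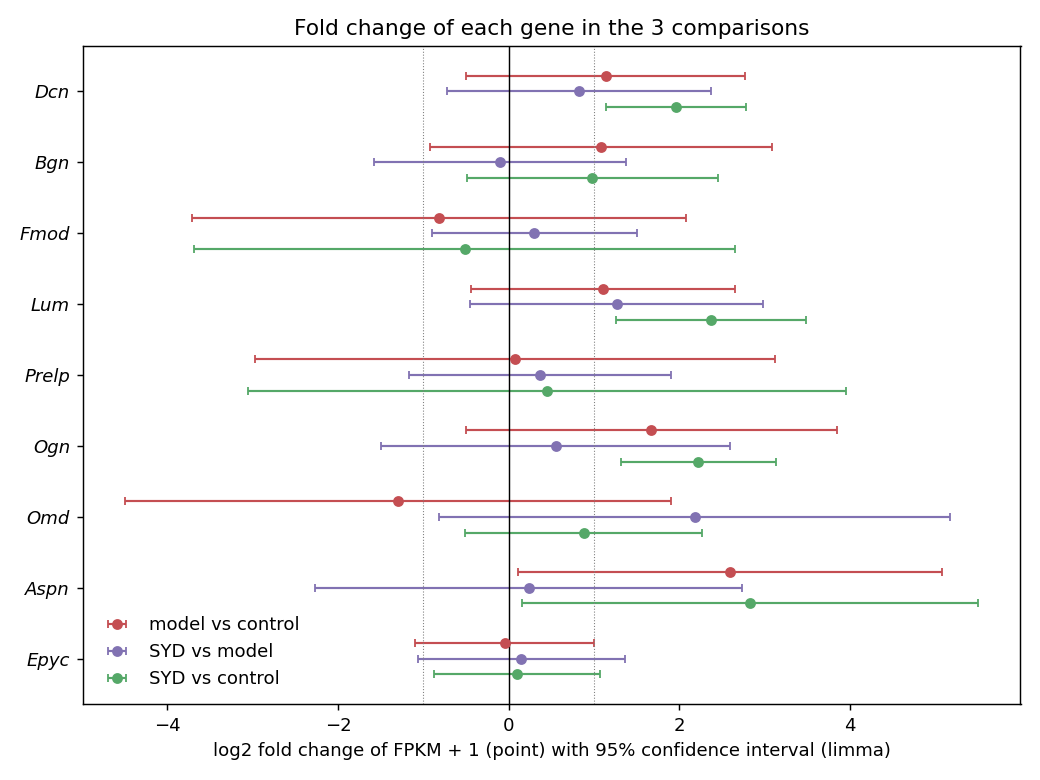
Log2 fold change of each SLRP gene on the FPKM + 1 scale in the 3 comparisons (points) with its 95% confidence interval from limma (bars, 3 libraries a group). The dotted lines mark a change of 1 in either direction. The intervals of Dcn, Lum and Ogn for SYD against control lie wholly above 1, and no interval for SYD against model excludes 0.

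The comparison of SYD with model libraries asks what the decoction changed in operated knees. None of the 9 genes was called in either direction, against 3.62% of all tested genes raised and 0.532% lowered. None of the 9 had SYD libraries wholly above or below the model libraries, where 7.89% of all genes were higher and 3.17% lower without overlap. In limma, 0% of genes passed an adjusted p under 0.05 and 731 of 13898 had an unadjusted p under 0.05, none of them an SLRP, and voom gave 0 as well. The log2 fold changes were 2.18 for Omd (95% confidence interval -0.81 to 5.17), 1.26 for Lum (-0.46 to 2.98), 0.82 for Dcn (-0.73 to 2.37) and 0.55 for Ogn (-1.49 to 2.60). They were 0.37 for Prelp, 0.30 for Fmod, 0.24 for Aspn, 0.15 for Epyc and -0.10 for Bgn (-1.57 to 1.37). The median of the 9 genes was 0.37 and that of all tested genes 0.22. Without model 2, Lum (1.95) and Omd (3.49) were called raised, where 13.8% of all genes were. Without model 3, Ogn (1.49) was called raised (2.19% of all genes), and without SYD 3, Prelp (1.12) was (3.32%). With TPM the median of all genes was 1.22, and none of the 9 was called.

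The SYD and control libraries were also compared. This comparison shares its control libraries with the first and its SYD libraries with the second, so the 3 are not independent. Of the 9 genes, 4 were called raised (Dcn, Lum, Ogn and Aspn) and none lowered, against 7.25% of all tested genes raised and 9.22% lowered. By limma, Dcn was higher in the SYD group by 1.96 ± 0.33 (log2, SE, adjusted p = 0.0183), Ogn by 2.22 ± 0.37 (adjusted p = 0.0176) and Lum by 2.37 ± 0.45 (adjusted p = 0.0243). Aspn was higher by 2.83 ± 1.09 (limma, adjusted p = 0.128), or by 4.17 in voom on the recovered reads (adjusted p = 0.114), and so did not pass the adjustment. An adjusted p under 0.05 was thus reached by 3 of the 9 genes and by 17.3% of all genes. The same 3 were higher in all SYD than in all control libraries, where 20.3% of all genes were higher and 22.2% lower without overlap. Of the others, Bgn was at 0.98 (95% confidence interval -0.49 to 2.45), Omd at 0.88 (-0.51 to 2.27), Prelp at 0.45 (-3.06 to 3.95), Fmod at -0.51 (-3.68 to 2.66) and Epyc at 0.10. The median of the 9 genes was 0.98 and that of all tested genes 0.

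Dcn, Lum and Ogn were called without any 1 of the 6 libraries, with log2 fold changes of 1.64 to 2.14 for Dcn, 2.07 to 2.84 for Lum and 1.85 to 2.42 for Ogn. Their adjusted p was less stable. Without control 3, or with all 9 libraries in 1 fit, none of the 9 genes had an adjusted p under 0.05, and 1 had without control 1 or without SYD 2, where 5.45 and 11.4% of all genes passed (209 of 13898 genes without control 3), while it reached 0.0678 for Dcn, 0.0911 for Lum and 0.0666 for Ogn over the libraries left out. Only Dcn, Lum and Ogn among the 9 were called without control 3, SYD 2 or SYD 3, where Aspn was lost. Without control 2, Aspn was not called and Fmod was called lowered (-1.95), as were 7.63% of all genes in that fit. With TPM none of the 9 was called, at 0.43 for Dcn, 0.86 for Lum and 0.77 for Ogn, while the median of all genes was -1.31 and the calls over all genes went from 1007 raised and 1282 lowered to 128 and 5901. Relative to that median these genes were at 1.74, 2.18 and 2.09. Of the fibrous, osteoblast and endothelial markers, 6 of 12, 3 of 10 and 4 of 6 were called raised in the same comparison, where 7.25% of all genes were. In each of these lists 1 marker was below 0 and the others above it. Marrow and blood markers fell, with 7 of 11 called lowered (median -2.82), where 9.22% of all genes were. All 14 chondrocyte markers were below 0, 1 of them called (median -1.81). Of the 5 adipocyte and 7 muscle markers tested, 1 and 0 were called, with medians of 0.55 and 1.24. The part of these tissues in the result was not tested.

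The make-up of the family within a library does not change when a library is scaled by 1 factor. The summed FPKM of the 9 genes was 885, 154 and 603 in control, 328, 1001 and 1423 in model, and 1114, 1166 and 710 in SYD libraries 1 to 3. Bgn was first in all 9 libraries, with 35.1 to 67.0% of the sum. Dcn was second in all 6 operated libraries and in control 2, with 12.9 to 25.5% of the sum, while Fmod was second in control 1 and 3 with 29.9 and 22.5%. Epyc held at most 0.146%. No gene's share differed between the 3 groups in an exact permutation test over the 9 libraries (two-sided, adjusted p between 0.424 and 0.882 over the 9 genes), and the lowest unadjusted exact p was 0.15, for Fmod.

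**Figure D3:**
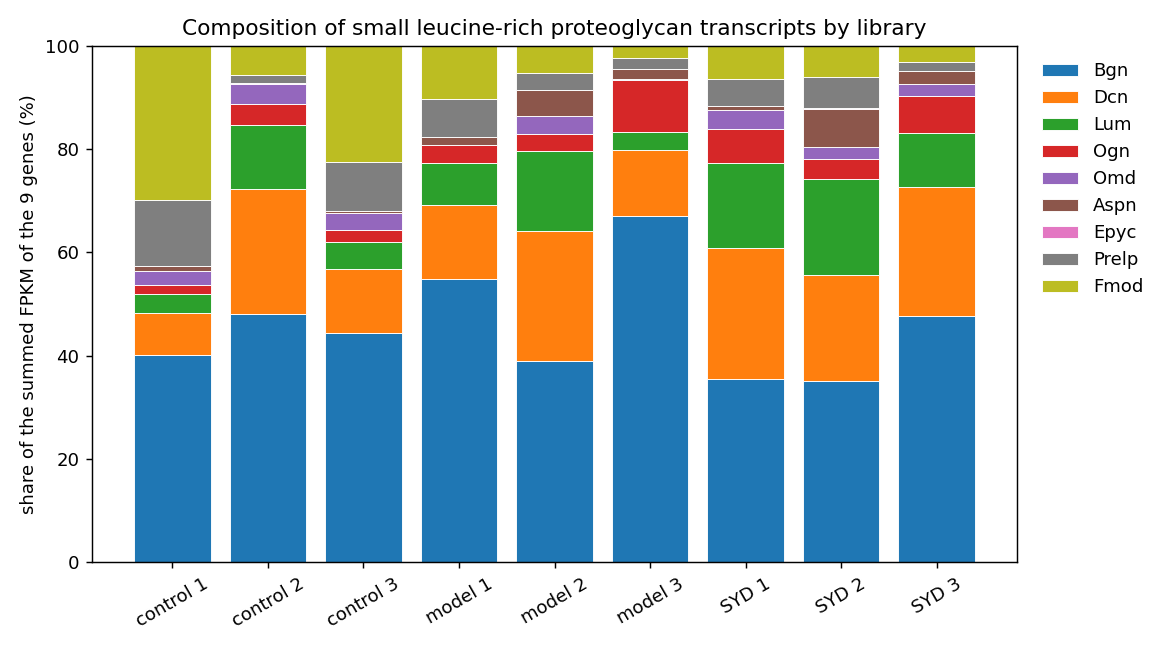
Share of each SLRP gene in the summed FPKM of the 9 genes, in percent, for each library. Each bar is 1 library and its colours are the genes. Bgn is the largest part of every bar, and Fmod and Prelp together are 42.6 and 31.96% in control 1 and 3 and 4.54 to 17.6% in the other libraries.

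In the positions of the deposited table, 8 of the 9 genes lie in 3 neighbourhoods, and each was summed. Dcn, Lum and Epyc lie with Kera in 192884 bases on chromosome 7, Fmod and Prelp with Optc in 148986 bases on chromosome 13, and Ogn, Omd and Aspn with Ecm2 in 120448 bases on chromosome 17. Fmod and Prelp together made up 42.6, 7.24 and 31.96% of the family sum in control, 17.6, 8.46 and 4.54% in model, and 11.6, 12.1 and 4.92% in SYD libraries 1 to 3 (exact permutation p = 0.179 over the 3 groups). Without control 2, the library that went against the other controls, the same exact test gave p = 0.0357, and without each other library in turn it gave 0.157 to 0.514. Ogn, Omd and Aspn together made up 5.39, 7.97 and 6.05% in control, 5.09, 11.8 and 12.1% in model, and 11.1, 13.5 and 12.04% in SYD (exact permutation p = 0.111, and 0.0321 without model 1, against 0.111 to 0.246 without each other library in turn). Control 2 and model 1 are singled out here because their removal changed the result. Dcn, Lum and Epyc together were 11.9, 36.7 and 17.5% in control, 22.4, 40.7 and 16.4% in model, and 41.9, 39.3 and 35.4% in SYD (p = 0.243, exact permutation).

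The share of Fmod and Prelp was read beside the chondrocyte marker sum of the same libraries. Control 1 and 3, with marker sums of 10782 and 5668, had the highest shares. Control 2, with a marker sum of 451, had a share of 7.24%, among the operated libraries. The part of cartilage content in these shares was not tested.

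**Figure D4:**
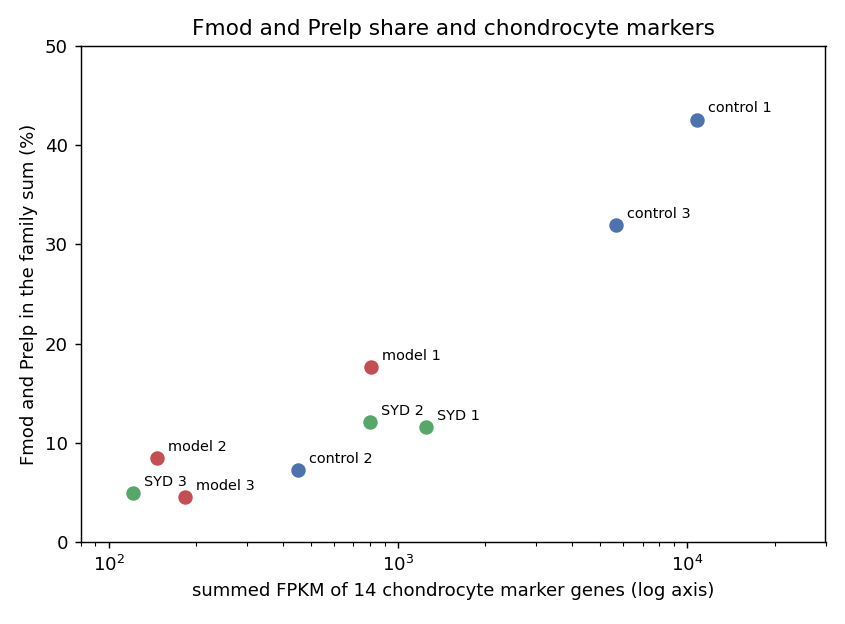
Percent of the summed SLRP FPKM that came from Fmod and Prelp (vertical) against the summed FPKM of 14 chondrocyte markers (horizontal, log axis) in the 9 libraries. Control 1 and 3 stand at the upper right, and control 2 lies with the operated libraries at a share of 7.24%.

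Ratios between related members were compared in the same way. Fmod over Prelp, neighbours on chromosome 13, was 2.36, 3.57 and 2.37 in control, 1.38, 1.58 and 1.13 in model, and 1.24, 0.994 and 1.77 in SYD libraries 1 to 3. All control libraries, control 2 included, were above all others, although the difference did not pass the adjustment over 4 ratios (exact permutation p = 0.0286, adjusted p = 0.114). Dcn over Bgn averaged 0.328 ± 0.156, 0.366 ± 0.245 and 0.611 ± 0.098 (SD, n = 3, exact permutation p = 0.236) in control, model and SYD. Lum over Dcn averaged 0.461 ± 0.0488, 0.483 ± 0.189 and 0.653 ± 0.244 (n = 3, exact permutation p = 0.561). The log2 ratio of Lum to Fmod was -3.03, 1.14 and -2.12 in control, -0.33, 1.57 and 0.52 in model, and 1.35, 1.62 and 1.72 in SYD (exact permutation p = 0.0786, adjusted p = 0.157).

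SLRPs act on collagen fibrils, so their summed FPKM was set against that of 14 collagen genes in the same library. The log2 ratio was -4.24, -4.53 and -4.11 in control, -3.01, -3.21 and -0.10 in model, and -3.49, -3.36 and -3.25 in SYD libraries 1 to 3. The groups did not overlap, with control lowest and model highest (exact permutation p = 0.00357, the smallest that 3 groups of 3 allow, adjusted p = 0.00714 over 2 ratios). Between pairs of groups the exact test cannot go below 0.1, which it reached for each pair. Model 3 set much of the size: the mean difference between model and control was 2.19 with it and 1.18 without it. Without any 1 control or SYD library the exact permutation p over 3 groups was between 0.05 and 0.1, and without any 1 model library between 0.00357 and 0.00714. Type II collagen was on average lower in the model group (Col2a1, -4.40 ± 1.53 log2, SE, limma, adjusted p = 0.193), with overlapping libraries (348 FPKM in control 2, 606 in model 1). Leaving it out of the collagen list gave an exact permutation p of 0.0429, with a SYD group 0.32 above control and overlapping it, and Col1a1 and Col1a2 alone gave 0.1. Both of these settings were chosen after seeing the data. Against 13 other cartilage matrix genes, the log2 ratio was -0.86, 0.86 and -0.54 in control, 0.21, 0.87 and 3.15 in model, and 0.49, 0.54 and 2.54 in SYD, with overlapping groups (exact permutation p = 0.268).

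**Figure D5:**
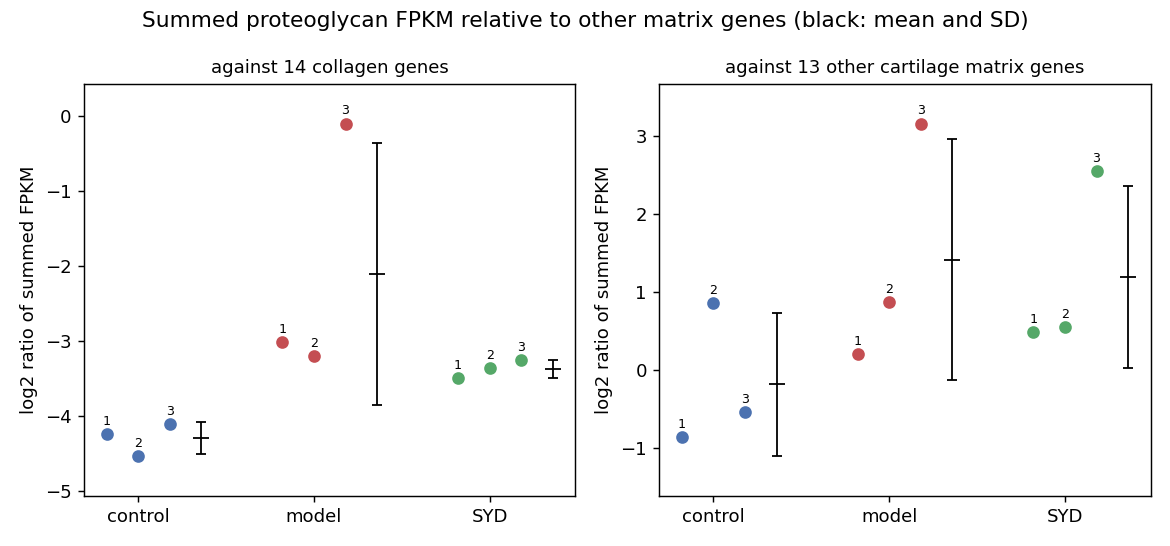
Log2 ratio of the summed FPKM of the 9 SLRP genes to that of 14 collagen genes (left) and of 13 other cartilage matrix genes (right). Numbered points are libraries 1 to 3 of each group, and black marks are the mean with its SD (n = 3). On the left the groups do not overlap and model 3 stands far above the other libraries at -0.10, and on the right the groups overlap.

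Of 8 further members of the wider family, 2 were called raised in the model group, where 3.55% of all tested genes were, both at low levels: Ecm2, which neighbours Aspn (2.19 ± 0.66 log2, SE, limma adjusted p = 0.149), and Optc, which neighbours Prelp (1.04 ± 0.31, adjusted p = 0.146). None was called between SYD and model. Podnl1, a podocan-like protein, was the 1 of the 8 called raised in SYD against control, where 7.25% of all genes were (1.99 ± 0.31, adjusted p = 0.0162), with FPKM of 13.8, 8.51 and 13.98 in control and 73.1, 46.4 and 36.3 in SYD. The median of the 8 genes was 0.63, 0.06 and 0.26 in the 3 comparisons, in the order model against control, SYD against model and SYD against control.

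A list of enzymes that build and sulfate the chains of SLRPs, to which the protein tyrosine sulfotransferases Tpst1 and Tpst2 were added, held 22 tested genes. In the model group 4 of 22 were called lowered and none raised, against 11.2% of all tested genes lowered and 3.55% raised, and the median was -0.58 against -0.23 over all genes. They were the chondroitin 4-O-sulfotransferases Chst11 (-2.46 ± 0.92 log2, SE, limma) and Chst12 (-2.76 ± 0.66), the dermatan 4-O-sulfotransferase Chst14 (-1.71 ± 0.63) and the uronyl 2-sulfotransferase Ust (-1.09 ± 0.43), with adjusted p between 0.0894 and 0.246. Model 1 and 3 held no read of Chst14 or Ust, model 1 none of Chst12 and model 3 none of Chst11, so all 4 calls rest in part on libraries without a read. Between SYD and model, Chst14 was called raised (1.86 ± 0.67) and the linkage enzyme B3galt6 lowered (-1.82 ± 0.72), both with an adjusted p of 0.723, where 3.62% of all genes were called raised and 0.532% lowered. Between SYD and control, B4galt4, a galactosyltransferase of keratan sulfate, was called raised (1.09 ± 0.25, adjusted p = 0.0378), and Chst12 (-1.28) and B3galt6 (-1.17) lowered, where 7.25% of all genes were raised and 9.22% lowered. The medians of these 2 comparisons were 0.86 and 0.10.

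In the model group 11.2% of all tested genes were called lowered and 3.55% raised. Of the 14 collagen genes, 4 were called lowered there, namely the cartilage collagens Col2a1, Col11a2 (-2.37), Col11a1 (-2.31) and Col9a1 (-4.52), and 1 raised, the fibril-associated Col14a1 (2.02), with adjusted p between 0.138 and 0.260 by limma. Between SYD and model, Col11a2 (1.55) and Col12a1 (2.90) were called raised, where 3.62% of all genes were, and between SYD and control, Col3a1 (3.47) and Col5a2 (1.55), where 7.25% were. The medians were -0.87, 1.64 and 1.16. Of the 13 other cartilage matrix genes, 3 were called lowered in the model group: Hapln1 (-3.50), Matn3 (-5.07) and Matn1. Matn1 was also called lowered in SYD against control. These lists and the chondrocyte markers share genes, and 8 of the 14 chondrocyte markers were called lowered in the model group.

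Of 17 growth factor and receptor partners, 2 were called raised in the model group (3.55% of all genes), Vegfa (1.501 ± 0.41 log2, SE, limma adjusted p = 0.122) and Tgfb2 (1.24 ± 0.40, adjusted p = 0.166), a TGF-β ligand. The same 2 were called raised in SYD against control, at 1.996 ± 0.50 (adjusted p = 0.0460) and 1.93 ± 0.26 (adjusted p = 0.0115). Between SYD and model, Lrp1 (1.40) and Tgfbr1 (1.59), a TGF-β receptor, were called raised (3.62% of all genes). The medians were -0.35, 0.69 and 0.48. Of 10 tested proteases that can cut SLRPs, 1 was called lowered in the model group, Mmp9 (-1.22 ± 0.38, adjusted p = 0.158), which was called raised between SYD and model (1.47 ± 0.39, adjusted p = 0.723). Between SYD and control 7 of the 10 were called raised, against the 7.25% of all genes given above. Those with the highest levels were Ctsk (1.89), Mmp13 (2.21), Htra1 (1.86), Mmp2 (1.31), Bmp1 (1.61) and Mmp3 (3.80), of which Ctsk, Mmp13, Bmp1 and Mmp3 passed an adjusted p of 0.05. The medians were 0.40, 1.14 and 1.52.

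The patterns of the members over the 9 libraries were compared with those of 12478 tested protein-coding genes by the root mean square (RMS) difference of centred log2(FPKM + 1), where a smaller value means a closer pattern. Comp, a cartilage matrix protein, was the nearest gene to both Fmod (0.49) and Prelp (0.51). Susd5 and Anxa8 followed for Fmod, and Anxa8 and Papss2, which makes the sulfate donor, for Prelp. The nearest genes were Dnm1, Ahnak and Lamb2 for Dcn (0.23 to 0.29), Col5a3, Emp1 and Igfbp7 for Lum (0.32 to 0.33), and Parva, Farp1 and Sertad4 for Bgn (0.30 to 0.36). They were Itga7, Nos3 and Ttc23 for Ogn (0.47 to 0.52), Marveld1, Dlx5 and Lamc1 for Omd (0.41 to 0.48), and Igfbp6, Clec3b and Meox2 for Aspn (0.66 to 0.73). Those of Epyc (Hoxc8, Spsb4 and Chodl) rest on values near 0. Aebp1, Farp1 and Npas2 came nearest to the family sum (0.35 to 0.37). Among the members themselves the closest pairs were Dcn with Lum (0.46) and Fmod with Prelp (0.49), each within 1 neighbourhood. Of the other neighbours, the barely detected Epyc differed from Dcn by 0.97 and from Lum by 1.011, while Omd differed from Aspn by 1.93, Ogn from Omd by 1.71 and Ogn from Aspn by 1.32.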

How the data were processed

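RNA from 9 knee cartilage libraries was sequenced. The authors deposited FPKM values per gene, with gene lengths and positions. Per the labels, HISAT2 2.0.5 was used, and the build named there is a human one although the gene identifiers are those of rat. The counting tool and annotation release are not given in the sources used here. The results text of the study names the high-dose SYD group (522 mg/kg) as the one sequenced, while the labels name no dose. The labels' extraction text speaks of retinas, and of 8 retina markers none reached the level for testing. FPKM times gene length came out as whole reads (within 0.1 of a read) for 100% of values, which gave the depth per library. Testing took the 13898 of 32043 genes whose FPKM averaged 0.5 or more over the libraries and was done on log2(FPKM + 1), a scale that understates changes of low genes, with limma 3.58.1 (R 4.3.3; lmFit, eBayes with trend, 2-sided) over the 6 libraries of each comparison. Shares and ratios within a library were tested with exact permutation tests over all 9 libraries (numpy 2.4.6). The limma script was tested on simulated data. Named were all 9 members, the called genes of each list (up to 6, by mean FPKM) and the 3 genes of most similar pattern per member. Members and lists were chosen with earlier results of these data known. Podn, Tnxb and Mylpf were not matched by name. Alternatives covered the pseudocount, filter, scaling (TPM, non-mitochondrial sum, quantile), all 9 libraries in 1 fit, robust eBayes, voom on the recovered reads, a replicate block and leaving out each library. Counting limits cover counting error only.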

Additional observations from a re-analysis of the deposited data

How the results depend on the processing

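No alternative gave a member an adjusted p under 0.05 in SYD against model. Depth limits the members with few reads: Epyc had at most 70 in a library, and Omd and Aspn had 0 and 38 in model 1. The count of SLRPs called in model against control was 1, and it was 0 with a pseudocount of 0.1, no filter, the non-mitochondrial sum or the replicate block, 2 with TPM, and 0 to 4 with 1 library left out. For SYD against model it was 0, and 0 to 2 with 1 library left out. For SYD against control it was 4, 0 with TPM, 3 (Aspn lost) with a pseudocount of 0.1, no filter or the replicate block, and 3 to 4 with 1 library left out. The replicate block left 0, 0 and 3 calls in the 3 comparisons. Libraries that share a number did not deviate together more than others did (correlations of -0.27 to 0.19, against -0.31 to 0.26 for libraries with different numbers). This check covers deviations over all tested genes and cannot tell whether libraries with 1 number were handled together. In SYD against control, 3 members passed an adjusted p of 0.05, and 0 did with all 9 libraries in 1 fit or with the replicate block. The cause of these differences was not tested.

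Signs of uncalled changes turned as follows (log2). With TPM, model against control gave -2.11 for Bgn, -2.01 for Dcn, -1.98 for Lum, -2.91 for Prelp and -1.30 for Ogn, SYD against model gave 1.55 for Bgn, and SYD against control gave -0.57 for Bgn, -0.96 for Prelp, -0.58 for Omd and -0.38 for Epyc. With the non-mitochondrial sum, Prelp was -0.14 in model against control and Bgn 0.10 in SYD against model. Quantile normalization gave -0.081 for Prelp and 0.041 for Epyc in model against control and 0.35 for Bgn in SYD against model. In voom, Aspn was -0.40 in SYD against model and Epyc -0.042 in SYD against control, where Epyc was -0.049 with a pseudocount of 0.1. With 1 library left out, model against control ranged from -2.25 to 0.14 for Fmod, -1.44 to 1.08 for Prelp, -2.61 to 0.013 for Omd and -0.48 to 0.21 for Epyc. SYD against model ranged from -0.68 to 0.51 for Bgn, -0.079 to 1.12 for Prelp, -0.28 to 1.49 for Ogn, -0.68 to 0.94 for Aspn and -0.22 to 0.58 for Epyc. SYD against control ranged from -1.95 to 0.44 for Fmod, -1.07 to 1.45 for Prelp and -0.27 to 0.39 for Epyc.

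Shares of the family sum, in percentage points and with 1 library left out, ranged from -1.30 to 7.22 for Dcn and -1.28 to 4.68 for Lum in model minus control. By neighbourhood they ranged from -2.66 to 11.8 for Dcn with Lum and Epyc, 2.73 to 16.7 for Bgn, -27.1 to -9.39 for Fmod with Prelp and 1.99 to 5.48 for Ogn with Omd and Aspn. In SYD minus control they were -8.98 to -2.70 for Bgn, -27.7 to -10.1 for Fmod with Prelp and 5.10 to 6.4997 for Ogn with Omd and Aspn. The log2 ratio to collagens ranged from 1.18 to 2.74 for model minus control and 0.81 to 1.02 for SYD minus control, and against Col1a1 and Col1a2 alone it was 1.72 and 0.33.

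Over all genes, voom called 801 raised and 2474 lowered in model against control (493 and 1553 by limma on FPKM), 995 and 83 in SYD against model (503 and 74) and 1645 and 1746 in SYD against control (1007 and 1282). With all 9 libraries in 1 fit, SYD against model gave 1044 and 176. An adjusted p under 0.05 was reached by 360 genes in model against control, by 1532 with no filter, 14 with a higher filter, 41 with robust eBayes, 9673 with TPM and 0 with the replicate block, and in SYD against control by 2407 genes, 253 with all 9 libraries and 0 with the replicate block.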
